A study of Homo sapiens with 24 samples.

Results

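The genes described here are 40 genes of the integrated stress response, with the genes of amino acid synthesis, amino acid transport and tRNA charging that belong to it. They were chosen by name, with earlier results of these data known. Each was looked up by its Ensembl identifier among the 60279 genes of each count table, and all 40 were found. By role they comprise 6 transcription factors, 6 feedback and signalling genes, 11 genes of amino acid and one-carbon synthesis, 7 amino acid transporters, 6 genes of tRNA charging and export, and 4 genes of secreted factors and a receptor. RNA was sequenced from SW872 cells, a human liposarcoma line, in 24 libraries that make 8 groups of 3. The study asked how the fusion proteins TAZ-CAMTA1 and YAP-TFE3, found in epithelioid hemangioendothelioma, change transcription relative to the proteins they derive from.

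All lines were pooled, G418-selected cells carrying the pBabeNeo retroviral vector, and the triplicates came from separate transductions. EV cells carried the vector alone. The other confluent groups carried TAZ-CAMTA1, TAZ4SA, YAP-TFE3, YAP5SA or full-length TFE3. TAZ4SA and YAP5SA are TAZ and YAP with serines replaced by alanines, so that the Hippo kinases cannot phosphorylate them at those sites. Full-length CAMTA1 cells were collected before confluence, and EVsub is empty vector titled as sub-confluent, although the growth notes name CAMTA1 as the only exception to harvest at confluence. Because the constructs were delivered by a retroviral vector to a single cell line, the levels are those of that line with an added construct.

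In the integrated stress response, the kinases PERK, GCN2, PKR and HRI phosphorylate the translation factor eIF2 on sensing misfolded protein in the endoplasmic reticulum, amino acid shortage, double-stranded RNA or heme shortage. General translation then falls while translation of the transcription factor ATF4 rises. ATF4 pairs with C/EBP proteins on short DNA elements, named C/EBP-ATF response elements, and raises genes that make, import and charge amino acids, together with genes such as PPP1R15A that bring eIF2 back to its unphosphorylated form.

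The element has a letter sequence that can be looked for in promoters, so the stretches that hold it are shown first. RefSeq promoter windows of GRCh38.p14, from 250 bases before to 50 bases after a transcription start, were found for 34 of the 40 genes, in 53 windows. The motif TGATGNAA was searched on both strands. It was present in at least 1 window of 12 of the 34 genes (35.3%), against 1217 of all 27305 genes with a window (4.46%). Counted by window, it was in 12 of 53 (22.6%) against 1270 of 35116 (3.62%). The genes were chosen by name as genes of this response, so the higher share is no independent result. In 8 genes the match lies before the start. These are printed 5′ to 3′ on the strand of the gene, with the matching letters in capitals, and the place of the first motif base is counted from the start site.
AARS1, chr16:70289675-70289704, minus strand, at -187: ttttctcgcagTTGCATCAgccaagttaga
ASNS, chr7:97872458-97872487, minus strand, at -68: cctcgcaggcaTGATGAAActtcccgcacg
ATF3, chr1:212565205-212565234, plus strand, at -191: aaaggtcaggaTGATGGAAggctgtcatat
CEBPG, chr19:33374060-33374089, plus strand, at -42: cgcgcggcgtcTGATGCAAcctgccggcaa
CHAC1, chr15:40953251-40953280, plus strand, at -209: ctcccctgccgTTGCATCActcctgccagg
FGF21, chr19:48755459-48755488, plus strand, at -54: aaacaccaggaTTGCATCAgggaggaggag
GARS1, chr7:30594834-30594863, plus strand, at -33: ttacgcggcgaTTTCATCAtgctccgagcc
SLC1A5, chr19:46784893-46784922, minus strand, at -97: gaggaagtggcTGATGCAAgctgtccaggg
The matches of MARS1 and SLC1A4 cross the start, and those of SLC3A2 and SLC7A1 lie after it. Sequences with TTGCATCA or TTTCATCA hold the motif on the opposite strand of the gene. Of 2 motifs of factors that the constructs carry or bind, the palindromic E-box TCACGTGA, bound by TFE3, was in 0 of the 34 genes and in 1.18% of all genes. With so low a share among all genes, that result does not set the 34 apart. The TEAD motif GGAATG, through which YAP and TAZ reach DNA, was in 5 of the 34 genes (14.7%, ATF5, CEBPG, GDF15, SLC1A5 and XPOT) and in 16.7% of all genes. These are matches of letters and no measurement of binding, and the windows leave out sites farther from the start.

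Library totals ran from 19700277 to 35287476 counts, and mitochondrial genes took 3.20% to 6.36% of them. Values below are CPM, each gene's counts divided by the TMM-scaled library size and brought to a common scale, and a gene counts as higher or lower where edgeR's quasi-likelihood test gave a Benjamini-Hochberg adjusted p under 0.05 over the 19997 genes tested. All 40 genes passed the filter of a mean of at least 5 counts, FGF21 through its counts in the YAP-TFE3 libraries. CAMTA1 transcript was higher in TAZ-CAMTA1 and CAMTA1 cells (log2 fold change 2.75 and 2.43), TFE3 in TFE3 and YAP-TFE3 cells (1.49 and 1.25), and YAP1 in YAP5SA and YAP-TFE3 cells (0.99 and 0.26). Without YAP-TFE3 replicate 3, described below, TFE3 and YAP1 were at 1.38 and 0.34 there. Against EV, some groups that carry no such construct were higher too. They were TAZ-CAMTA1 and EVsub for YAP1 (0.40 and 0.27), YAP5SA and the TAZ4SA cells for TFE3 (0.64 and 0.54), and YAP-TFE3 for CAMTA1 (0.28). The YAP1 value in YAP-TFE3 cells therefore does not by itself show the construct. WWTR1, the gene of TAZ, was at -0.17 in TAZ-CAMTA1 cells without passing the test and was lower in the TAZ4SA cells (-0.60, edgeR adjusted p = 9.77e-07). It was also lower in YAP-TFE3 (-0.70) and YAP5SA (-1.57), which carry no TAZ. Total WWTR1 counts therefore neither show the TAZ4SA construct nor decide against the label, and these cells are called the libraries labelled TAZ4SA. The mesenchymal markers VIM, COL1A1, COL1A2, FN1, THY1 and LGALS1 summed to 5079 to 5966 CPM in EV, 5876 to 7605 in TAZ-CAMTA1, 2322 to 3483 in the libraries labelled TAZ4SA, 3943 to 5398 in YAP-TFE3, 2311 to 4105 in YAP5SA, 5945 to 7797 in TFE3, 3278 to 3411 in EVsub and 3625 to 4207 in CAMTA1. Against EV, 0 of the 6 were higher and 4 lower in YAP-TFE3 with and without replicate 3, 2 higher and 3 lower in the libraries labelled TAZ4SA, 2 higher and 1 lower in YAP5SA, and 2 of each in EVsub. Of 5 markers of other cell types, PTPRC was at most 0.0476 CPM and the sum was 3.47 to 11.02 CPM, 8.14 to 8.80 in EV and 3.47 to 6.97 in the libraries labelled TAZ4SA, YAP-TFE3 and YAP5SA. CDH1, at 0 to 1.85 CPM, was higher than in EV in TAZ-CAMTA1, the libraries labelled TAZ4SA, YAP-TFE3 and YAP5SA. PECAM1 was lower in the last 3 of these (-1.72, -0.58 and -1.70 on the log2 scale), and EPCAM was lower in YAP5SA (-1.04) and in the libraries labelled TAZ4SA (-1.08). The part of these marker differences in the stress response values was not tested. In bulk RNA, fewer cells of a type and less RNA per cell cannot be told apart.

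YAP-TFE3 replicate 3 stood apart from its partners. Its counts differed from replicates 1 and 2 with a chi-square of 66.1 and 52.2 per degree of freedom, while other pairs of replicates within a group gave 3.02 to 23.9. It was below both partners in 35 of the 40 stress response genes, against 39.4% of all genes, and mitochondrial genes took 5.12% of its counts against 3.63% and 3.79%. It was still above every EV library in 36 of the 40 genes, and replicates 1 and 2 were so in 38. The share of all genes was not taken for these counts. For all 3 YAP-TFE3 libraries together, 34 of the 40 genes did not overlap EV in either direction, against 51.1% of all genes. Fold changes and counts of calls for YAP-TFE3 are therefore given below with all 3 libraries and without replicate 3, except counts by role and under total-count scaling, which use all 3. EV replicate 3 was above both its partners in 33 of the 40 genes, against 36.6% of all genes, and replicate 3 had the highest summary value of the 40 genes in 6 of the 8 groups.

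The stress response genes were high in the libraries labelled TAZ4SA, in YAP5SA and in YAP-TFE3, and close to EV in TAZ-CAMTA1 and TFE3. The summary value of a library is the median over the 40 genes of log2 CPM minus the EV mean. It was 0.01 ± 0.22 in EV (mean ± SD, n = 3, as for all groups), -0.03 ± 0.20 in TAZ-CAMTA1, 1.66 ± 0.16 in the libraries labelled TAZ4SA, 1.65 ± 0.18 in YAP5SA and -0.11 ± 0.06 in TFE3. YAP-TFE3 replicates 1 to 3 were at 1.88, 1.92 and 0.82. EVsub was at -0.48 ± 0.04 and CAMTA1 at -0.48 ± 0.06, so the values of the 2 groups titled or described as sub-confluent lay below every confluent library. Together the 40 genes took a mean of 0.562% of counts in EV, 0.571% in TAZ-CAMTA1, 1.28% in the libraries labelled TAZ4SA, 1.41% in YAP-TFE3 (1.66% without replicate 3), 1.32% in YAP5SA, 0.526% in TFE3, 0.417% in EVsub and 0.424% in CAMTA1.

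**Figure D1:**
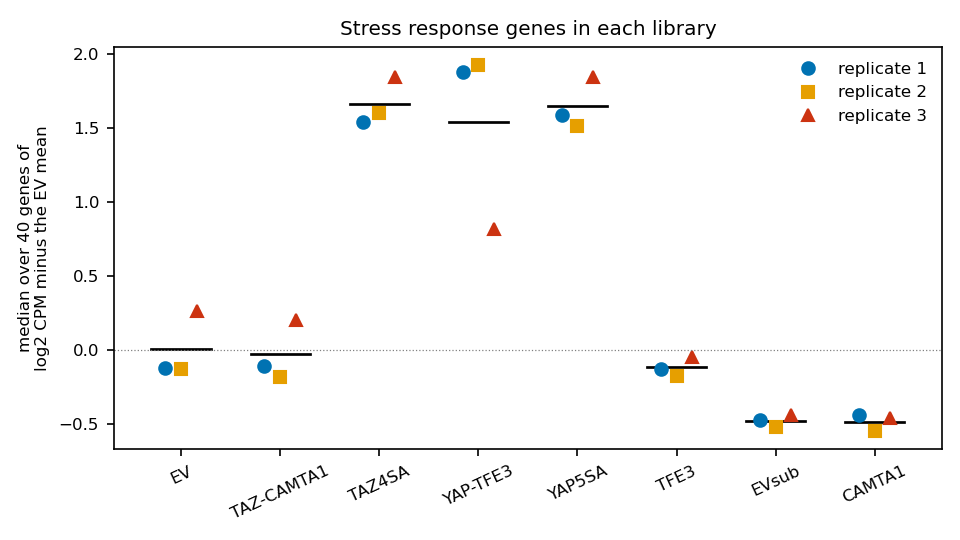
Median over the 40 stress response genes of log2 CPM minus the mean of EV (vertical axis, log2 units) for each of 24 libraries in 8 groups, with circle, square and triangle for replicates 1, 2 and 3 and a bar at the group mean. The libraries labelled TAZ4SA and YAP5SA lie between 1.51 and 1.85, YAP-TFE3 replicate 3 lies at 0.82 below its partners, and EVsub and CAMTA1 lie below all other groups.

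Against EV, 38 of the 40 genes rose and 0 fell in the libraries labelled TAZ4SA, where 25.1% of all tested genes were higher and 24.2% lower. The median log2 fold change of the 40 was 1.70, a 3.24-fold difference, and 1.68 with FGF21 set at the lower limit of its counting interval. In YAP5SA 38 rose and 1 fell, where 22.7% of all genes were higher and 21.6% lower, with a median of 1.63. In YAP-TFE3 37 rose and 0 fell, where 25.6% of all genes were higher and 22.6% lower, with a median of 1.68; without replicate 3 it was 38 and 0, against 26.1% and 23.6% of all genes, with a median of 1.92. The 3 comparisons share the EV libraries, and the 40 genes were chosen with earlier results of these data known. The median of all genes was within 0.05 of 0 in each comparison. Counts of called genes here, and in the comparisons with YAP-TFE3 below, include FGF21, which passed the filter through its YAP-TFE3 counts.

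TAZ-CAMTA1 and TFE3 gave a different picture. In TAZ-CAMTA1 0 of the 40 genes passed the edgeR test in either direction, where 3.55% of all genes were higher and 1.44% lower. The 40 log2 fold changes ran from -0.38 to 0.77 with a median of -0.01. At an unadjusted edgeR p under 0.05 the count was 3 of the 40, against 17.9% of all genes. PPP1R15A (0.52 ± 0.20 SE, adjusted p = 0.144) and VLDLR (0.33 ± 0.11 SE, adjusted p = 0.0861) were above EV. ATF5 (-0.28 ± 0.11 SE, adjusted p = 0.149) was below it, and DESeq2 called 0 of the 40. Without a filter on low counts edgeR called 4 of the 40 higher and 0 lower, where 1012 of all genes were higher and 355 lower. A fit of only the groups compared called 1 higher and 0 lower, where 938 of all genes were higher and 405 lower. In TFE3 0 passed the edgeR test, where 0.035% of all genes were higher and 0% lower. The count at an unadjusted edgeR p under 0.05 was 0, against 3.79% of all genes, and DESeq2 called 0. In CAMTA1 against EVsub 1 gene rose and 0 fell, where 1.26% of all genes were higher and 0.57% lower. The gene was VLDLR (0.55 ± 0.11 SE, adjusted p = 0.00607), and its call was lost without CAMTA1 replicate 2 or EVsub replicate 2.

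Scaling to total counts alone moved the median of all genes by -0.198 in the libraries labelled TAZ4SA and by -0.185 in YAP5SA, each against EV. The split of all genes went from 5013 higher and 4835 lower to 3355 and 7318 in the former, and from 4534 and 4325 to 3135 and 6840 in the latter. In YAP-TFE3 it went from 5126 and 4519 to 4319 and 5538. The stress response genes then stood at 36 higher and 2 lower (ATF5 and SLC38A2) in the libraries labelled TAZ4SA, at 38 and 1 in YAP5SA, and at 36 and 0 in YAP-TFE3. The same scaling took all genes from 3956 higher and 3412 lower to 3109 and 4286 in EVsub against EV, and from 252 and 114 to 222 and 169 in CAMTA1 against EVsub. In TAZ-CAMTA1 it took them from 5376 and 5354 to 7486 and 3695 against the libraries labelled TAZ4SA, and from 3970 and 4564 to 5098 and 3762 against YAP-TFE3.

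**Figure D2:**
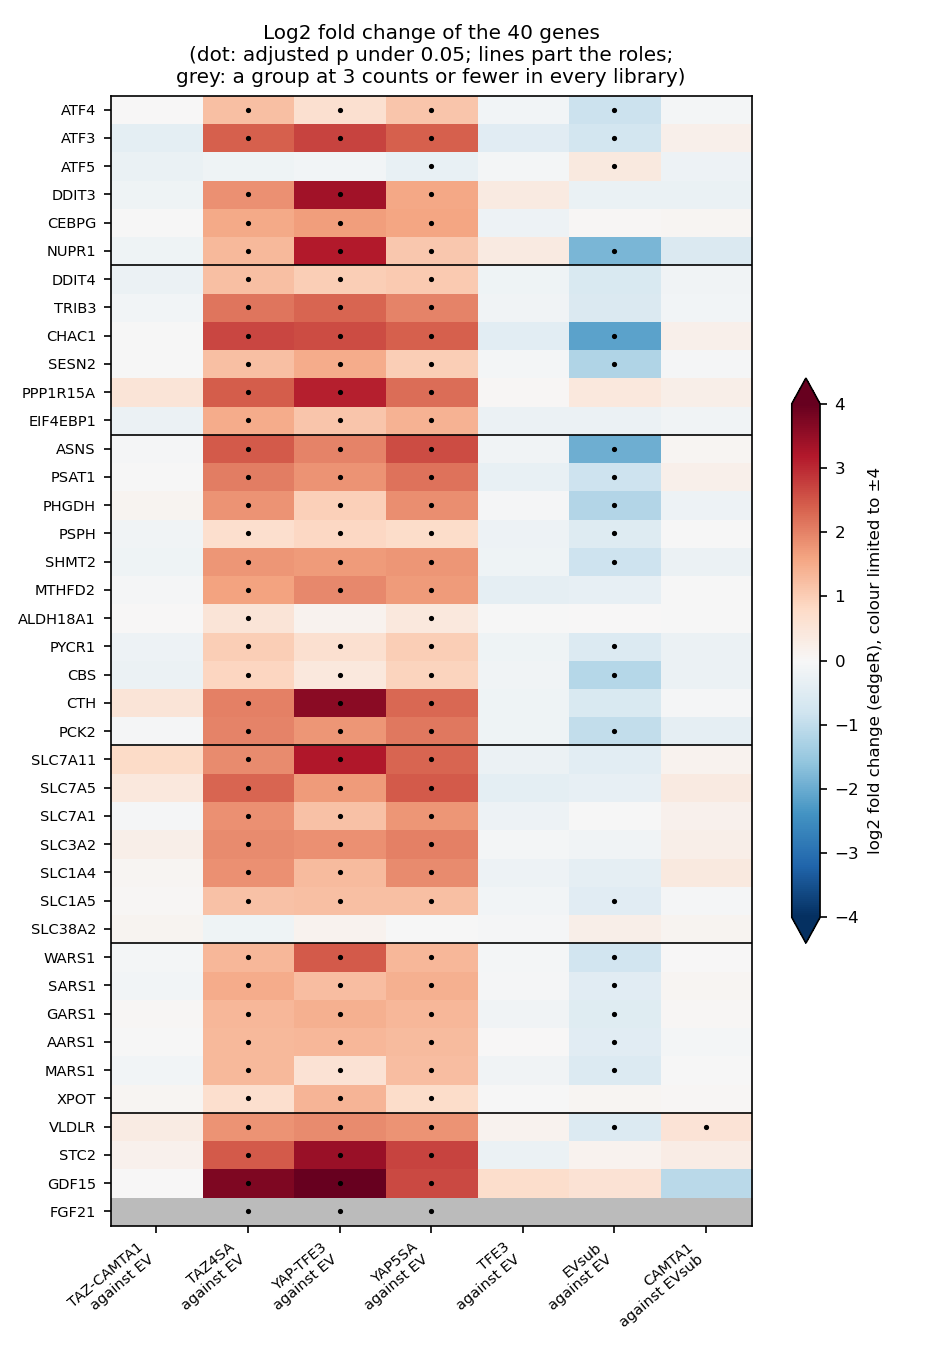
Log2 fold change (colour, limited to 4 in either direction) of the 40 genes (rows, parted by role) in 7 comparisons against empty vector (columns), with a dot where the edgeR adjusted p was under 0.05 and grey where a group had 3 counts or fewer in every library. The columns for the libraries labelled TAZ4SA, YAP-TFE3 and YAP5SA hold 38, 37 and 39 dots, those for TAZ-CAMTA1 and TFE3 hold 0, and that for EVsub holds 20 in blue and 1 in red.

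Among the 6 transcription factors, 5 rose in each of the 3 induced groups, and ATF5 was the exception. ATF4, the factor at the head of the response, had the highest level per kilobase of the 40 genes in EV, 155 CPM per kilobase of exon. ATF4 (chromosome 22, 39519695 to 39522683, GRCh38) stood at 373, 373 and 469 CPM in EV, at 408, 403 and 419.8 in TAZ-CAMTA1 and at 385, 369 and 378 in TFE3. The libraries labelled TAZ4SA held 941, 937 and 925 CPM, YAP-TFE3 held 654, 704 and 537, and YAP5SA held 875, 914 and 846. EVsub held 208, 225 and 243 CPM and CAMTA1 211, 213 and 216. The 3 induced groups lay above every EV library without overlap, and EVsub and CAMTA1 lay below every other library. The log2 fold change of ATF4 against EV was 1.21 ± 0.09 (SE) in the libraries labelled TAZ4SA (adjusted p = 1.82e-10), 1.12 ± 0.09 in YAP5SA (adjusted p = 6.55e-10) and 0.64 ± 0.09 in YAP-TFE3 (adjusted p = 3.32e-06), or 0.75 without replicate 3.

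DDIT3, which encodes the pro-apoptotic factor CHOP, was at 10.3, 10.6 and 16.2 CPM in EV, 10.2, 9.82 and 12.5 in TAZ-CAMTA1 and 14.0, 14.3 and 18.8 in TFE3. It was at 38.2, 39.3 and 53.1 CPM in the libraries labelled TAZ4SA, at 166, 175 and 37.6 in YAP-TFE3 and at 29.9, 32.1 and 46.0 in YAP5SA. EVsub held 9.15, 11.5 and 10.4 CPM and CAMTA1 8.90, 8.07 and 8.84. YAP-TFE3 replicates 1 and 2 were far above all other libraries, while replicate 3 lay within the YAP5SA range and just below the libraries labelled TAZ4SA. The log2 fold change of DDIT3 against EV was 1.82 ± 0.34 (SE) in the libraries labelled TAZ4SA, 1.55 ± 0.34 in YAP5SA and 3.36 ± 0.35 in YAP-TFE3 (3.79 without replicate 3). Its annotated exons overlap those of MARS1 on the other strand, and whether the counting used strand is not stated.

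NUPR1, a small stress-induced chromatin protein, had 37.3, 31.8 and 73.3 CPM in EV and 476, 551 and 244 CPM in YAP-TFE3. It had 97.3, 105 and 96.8 CPM in YAP5SA and 109, 111 and 124 in the libraries labelled TAZ4SA. EVsub had 10.5, 15.4 and 14.0 CPM. All YAP-TFE3 libraries were above those of the other groups, and EV replicate 3 was high among the controls. NUPR1 rose by a log2 fold change of 1.28 in the libraries labelled TAZ4SA, 1.08 in YAP5SA and 3.16 in YAP-TFE3 (3.45 without replicate 3).

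ATF3, which ATF4 induces early in the response and whose promoter holds the motif shown above, went from 7.45 to 9.74 CPM in EV to 41.6 to 51.3 CPM in the libraries labelled TAZ4SA, 44.1 to 46.1 in YAP5SA and 69.7, 72.6 and 25.5 in YAP-TFE3. Its log2 fold changes were 2.40, 2.38 and 2.69 (3.04 without replicate 3). CEBPG, a dimer partner of ATF4, rose by 1.52, 1.57 and 1.66 (2.00). In this order, the libraries labelled TAZ4SA, then YAP5SA, then YAP-TFE3 with the value without replicate 3 in parentheses, the log2 fold changes of the other genes follow. ATF5, a related factor, was at 23.4, 24.8 and 25.5 CPM in EV and at 16.9, 20.7 and 22.4 CPM in YAP5SA. The YAP5SA libraries were all below those of EV, and ATF5 fell by 0.30 ± 0.11 (SE) on the log2 scale (adjusted p = 0.0306), a call lost without EV replicate 2 or 3 or YAP5SA replicate 1, without a filter and when only the groups compared were fitted. In the libraries labelled TAZ4SA it was at -0.17 and in YAP-TFE3 at -0.11 (-0.23 without replicate 3), neither past the test.

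The 6 feedback and signalling genes all rose in the 3 induced groups. TRIB3, a pseudokinase that restrains ATF4, was at 97.5, 95.9 and 128 CPM in EV, at 93.6, 91.2 and 114 in TAZ-CAMTA1 and at 98.3, 93.8 and 99.7 in TFE3. The libraries labelled TAZ4SA held 440.4, 425 and 547 CPM, YAP-TFE3 663, 766 and 192, and YAP5SA 389, 399.7 and 473. EVsub held 67.7, 70.7 and 76.4 CPM, and CAMTA1 60.6, 63.7 and 76.9. Every induced library was above every EV library, with YAP-TFE3 replicate 3 the lowest of the 9. The log2 fold change of TRIB3 was 2.14 ± 0.28 (SE), 1.97 ± 0.28 and 2.33 ± 0.28 in the libraries labelled TAZ4SA, YAP5SA and YAP-TFE3 (2.74 without replicate 3).

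CHAC1, an enzyme that degrades glutathione, was at 5.76, 6.32 and 12.5 CPM in EV, 5.34, 8.11 and 10.5 in TAZ-CAMTA1 and 5.84, 4.998 and 7.41 in TFE3. It was at 50.6, 46.9 and 57.4 CPM in the libraries labelled TAZ4SA, at 57.9, 69.5 and 19.05 in YAP-TFE3 and at 36.6, 39.8 and 51.2 in YAP5SA. EVsub was at 1.72, 1.62 and 2.10 CPM and CAMTA1 at 2.68, 2.05 and 1.52. Among the 6 feedback genes CHAC1 covered the widest range, low in EVsub and CAMTA1 and high in the induced groups, which did not overlap EV. Its log2 fold changes were 2.68 ± 0.34 (SE), 2.40 ± 0.34 and 2.60 ± 0.34 in the libraries labelled TAZ4SA, YAP5SA and YAP-TFE3 (2.99 without replicate 3).

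DDIT4, an inhibitor of mTORC1 signalling, was at 33.4, 34.8 and 40.7 CPM in EV, 30.7, 27.4 and 34.0 in TAZ-CAMTA1 and 38.8, 29.7 and 28.7 in TFE3. The libraries labelled TAZ4SA held 78.5, 80.8 and 92.2 CPM, YAP-TFE3 86.8, 102 and 27.1, and YAP5SA 59.5, 75.1 and 89.2. EVsub held 22.6, 20.4 and 27.5 CPM and CAMTA1 20.5, 23.5 and 19.4. YAP-TFE3 replicate 3 was below all EV libraries, so the groups overlap, while the other induced libraries lay above EV. DDIT4 rose by a log2 fold change of 1.21 in the libraries labelled TAZ4SA, 1.04 in YAP5SA and 0.99 in YAP-TFE3 (1.38 without replicate 3). The YAP-TFE3 call was lost without YAP-TFE3 replicate 2 and when only the groups compared were fitted.

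PPP1R15A, the GADD34 subunit that directs dephosphorylation of eIF2, went from 25.6, 26.7 and 28.0 CPM in EV to 117, 129 and 132 CPM in YAP5SA, 132, 141 and 153 in the libraries labelled TAZ4SA and 273, 297 and 118 in YAP-TFE3. In TAZ-CAMTA1 it was at 39.7, 37.5 and 38.1 CPM, above EV without overlap but short of the threshold. Log2 fold changes were 2.41 in the libraries labelled TAZ4SA, 2.24 in YAP5SA and 3.10 in YAP-TFE3 (3.42 without replicate 3). SESN2, an inhibitor of mTORC1, rose by 1.22, 0.99 and 1.48 (1.83) and EIF4EBP1, a repressor of cap-dependent translation, by 1.49, 1.41 and 1.09 (1.31).

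**Figure D3:**
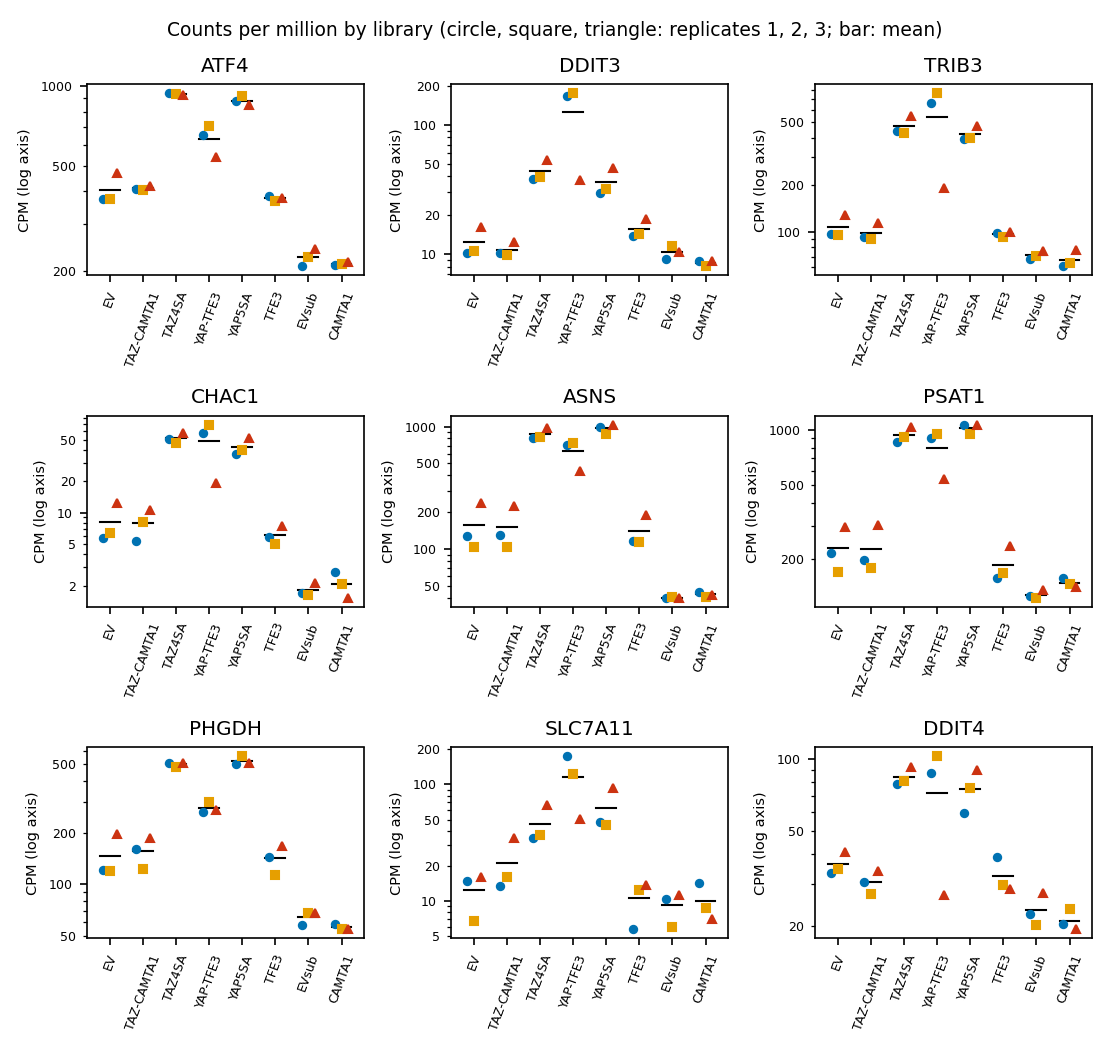
CPM on a log axis for 9 of the genes in each library of the 8 groups, with circle, square and triangle for replicates 1, 2 and 3 and a bar at the group mean. In every panel the libraries labelled TAZ4SA and YAP5SA lie above EV, as does YAP-TFE3 except for replicate 3 of DDIT4, and EVsub and CAMTA1 are lowest for ATF4, CHAC1, ASNS and PHGDH.

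All 11 genes of amino acid and one-carbon synthesis rose in YAP5SA and in the libraries labelled TAZ4SA, and 10 rose in YAP-TFE3. ASNS, which makes asparagine and has the motif before its start, was at 129, 104 and 239 CPM in EV, 131, 105 and 223 in TAZ-CAMTA1 and 116, 115 and 191 in TFE3. It stood at 807, 815 and 976 CPM in the libraries labelled TAZ4SA, 708, 738 and 437 in YAP-TFE3 and 998, 864 and 1036 in YAP5SA. EVsub held 40.3, 40.6 and 40.1 CPM and CAMTA1 45.1, 41.1 and 42.4. The induced groups lay above EV, and EVsub and CAMTA1 below it, without overlap, while TAZ-CAMTA1 and TFE3 overlapped EV. In EV, TAZ-CAMTA1 and TFE3 replicate 3 was the highest of the 3 libraries. Log2 fold changes of ASNS were 2.46 ± 0.27 (SE) in the libraries labelled TAZ4SA, 2.62 ± 0.27 in YAP5SA and 2.00 ± 0.27 in YAP-TFE3 (2.21 without replicate 3).

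The serine pathway starts from glycolysis with PHGDH and goes on through PSAT1 and PSPH. PHGDH was at 121, 119 and 197 CPM in EV, 162, 123 and 186 in TAZ-CAMTA1 and 145, 114 and 167 in TFE3. It was at 509, 484 and 512 CPM in the libraries labelled TAZ4SA, 264, 302 and 272 in YAP-TFE3 and 504, 558 and 512 in YAP5SA. EVsub held 58.2, 68.3 and 68.0 CPM and CAMTA1 59.0, 54.6 and 54.8. YAP-TFE3 formed a step of its own between EV and the other 2 induced groups, with replicate 3 between its partners. The log2 fold change of PHGDH was 1.79 ± 0.16 (SE) in the libraries labelled TAZ4SA, 1.85 ± 0.16 in YAP5SA and 0.94 ± 0.16 in YAP-TFE3 (0.96 without replicate 3).

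PSAT1 was at 216, 169.7 and 298 CPM in EV, 196, 178 and 307 in TAZ-CAMTA1 and 157, 168 and 234 in TFE3. The libraries labelled TAZ4SA held 863, 918 and 1039 CPM, YAP-TFE3 899, 945 and 542, and YAP5SA 1064, 948 and 1067. EVsub held 125, 123 and 137 CPM and CAMTA1 157, 146 and 142. Here YAP-TFE3 replicates 1 and 2 were level with the other induced groups, unlike for PHGDH, and replicate 3 was lower but above EV. PSAT1 rose by 2.04 ± 0.21 (SE), 2.17 ± 0.21 and 1.80 ± 0.21 in the libraries labelled TAZ4SA, YAP5SA and YAP-TFE3 (2.02 without replicate 3). PSPH rose less, by 0.67, 0.74 and 0.83 (1.16 without replicate 3), and its YAP-TFE3 libraries at 151, 163 and 61.2 CPM overlapped EV at 66.5, 65.7 and 79.8. Its call in the libraries labelled TAZ4SA was lost under total-count scaling.

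CTH, which makes cysteine from cystathionine, was at 7.73, 6.70 and 9.59 CPM in EV and at 129, 128 and 36.5 CPM in YAP-TFE3. It was at 39.9, 31.8 and 44.5 CPM in YAP5SA and 30.0, 30.6 and 35.6 in the libraries labelled TAZ4SA. YAP-TFE3 replicates 1 and 2 were above every other library, and replicate 3 lay among the YAP5SA values. The log2 fold changes were 3.62 ± 0.30 (SE) in YAP-TFE3 (4.01 without replicate 3), 2.28 ± 0.29 in YAP5SA and 2.01 ± 0.29 in the libraries labelled TAZ4SA. CBS, the step before CTH, rose by 0.84, 0.90 and 0.41 (0.52), and its call in YAP-TFE3 was lost without EV replicate 1 or 2 or YAP-TFE3 replicate 2, under total-count scaling and when only the groups compared were fitted. CBS has a near-identical copy in the genome, so its counts are uncertain.

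The mitochondrial folate enzymes SHMT2 and MTHFD2 rose by 1.77 and 1.62 in the libraries labelled TAZ4SA, by 1.76 and 1.70 in YAP5SA and by 1.70 and 1.92 in YAP-TFE3 (1.96 and 2.18 without replicate 3). PCK2, which feeds mitochondrial carbon towards serine, rose by 1.98, 2.11 and 1.78 (2.11). The proline genes moved less. PYCR1 rose by 0.98, 1.00 and 0.64 (0.77), and ALDH18A1 by 0.50 and 0.41 in the libraries labelled TAZ4SA and YAP5SA, while in YAP-TFE3 it was at 0.14 (0.05 without replicate 3) and did not pass.

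Of the 7 amino acid transporters 6 rose in each induced group, and SLC38A2 did not. SLC7A11, the light chain of the cystine and glutamate exchanger, was at 14.8, 6.66 and 16.2 CPM in EV, 13.5, 15.9 and 34.4 in TAZ-CAMTA1 and 5.70, 12.4 and 13.6 in TFE3. The libraries labelled TAZ4SA held 34.4, 36.8 and 66.1 CPM, YAP-TFE3 175, 123 and 50.8, and YAP5SA 48.0, 45.1 and 93.5. EVsub held 10.3, 6.04 and 11.3 CPM and CAMTA1 14.4, 8.69 and 7.07. Its replicates spread more than those of the other transporters, and TAZ-CAMTA1 replicate 3 reached the lowest of the libraries labelled TAZ4SA. The log2 fold change of SLC7A11 was 1.88 ± 0.45 (SE) in the libraries labelled TAZ4SA, 2.32 ± 0.45 in YAP5SA and 3.22 ± 0.46 in YAP-TFE3 (3.58 without replicate 3).

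SLC7A5, the light chain of the large neutral amino acid exchanger, was at 188, 154 and 248 CPM in EV, 1019, 1107 and 1112 CPM in YAP5SA, 998, 970.5 and 998 in the libraries labelled TAZ4SA and 753, 848 and 325 in YAP-TFE3. It rose by 2.33 in the libraries labelled TAZ4SA, 2.46 in YAP5SA and 1.71 in YAP-TFE3 (2.03 without replicate 3). SLC3A2, the heavy chain that both light chains share, rose by 1.89, 2.01 and 1.82 (2.15). The arginine and lysine carrier SLC7A1 rose by 1.82, 1.78 and 1.16 (1.44), and the neutral amino acid carriers SLC1A4 and SLC1A5 by 1.82 and 1.18 in the libraries labelled TAZ4SA, by 1.89 and 1.20 in YAP5SA and by 1.28 and 1.19 in YAP-TFE3 (1.53 and 1.43).

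SLC38A2, a sodium-coupled carrier of small neutral amino acids, had the second highest level per kilobase in EV, 151 CPM per kilobase. It was at 1059, 977 and 914 CPM in EV, 965, 898 and 1051 CPM in YAP5SA, 795, 869.6 and 967 in the libraries labelled TAZ4SA and 1242, 1139 and 875 in YAP-TFE3. These ranges overlap. Its log2 fold changes of -0.16 in the libraries labelled TAZ4SA, -0.02 in YAP5SA and 0.14 in YAP-TFE3 did not pass, and without YAP-TFE3 replicate 3 it passed in that group at 0.28.

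All 6 genes of tRNA charging and export rose in the 3 induced groups. WARS1, the tryptophan enzyme, was at 206, 204 and 314 CPM in EV, at 603, 575 and 653 in the libraries labelled TAZ4SA, at 602, 577 and 622 in YAP5SA and at 1447, 1622 and 889 in YAP-TFE3. YAP-TFE3 was above the other induced groups in all 3 libraries. The log2 fold change of WARS1 was 1.34, 1.32 and 2.45 (2.67 without replicate 3). MARS1, the methionine enzyme, went the other way round, with 264, 266 and 344 CPM in EV, 682, 689 and 701 CPM in YAP5SA, 724, 690.3 and 728 in the libraries labelled TAZ4SA and 403, 448 and 447 in YAP-TFE3. Its log2 fold change was 1.29 in the libraries labelled TAZ4SA, 1.25 in YAP5SA and 0.57 in YAP-TFE3 (0.55 without replicate 3). The serine, glycine and alanine enzymes SARS1, GARS1 and AARS1 rose by 1.23 to 1.49 in all 3 groups (up to 1.65 without replicate 3). XPOT, which carries tRNA out of the nucleus, rose by 0.69, 0.75 and 1.35 (1.55).

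The 4 secreted factors and receptor rose in the 3 induced groups, and YAP-TFE3 was the furthest from EV by log2 fold change for GDF15 and STC2. FGF21 passed the filter through its YAP-TFE3 counts, so it does not bear on that order. For STC2, YAP-TFE3 replicate 3, at 214 CPM, lay below every other induced library. For VLDLR the YAP-TFE3 libraries, at 57.0 to 60.0 CPM, lay within the range of the libraries labelled TAZ4SA, 49.6 to 60.4 CPM. GDF15, a stress-induced hormone of the TGF-β superfamily, was at 0.518, 0.457 and 0.388 CPM in EV and at 66.7, 75.1 and 16.9 CPM in YAP-TFE3. It was at 2.36, 2.00 and 4.18 CPM in YAP5SA and 5.70, 4.04 and 8.75 in the libraries labelled TAZ4SA. All libraries of the 3 groups were above those of EV, and the lowest YAP-TFE3 library was above the highest of the others. GDF15 rose by 3.74 ± 0.53 (SE), 2.63 ± 0.58 and 6.83 ± 0.50 in the libraries labelled TAZ4SA, YAP5SA and YAP-TFE3 (7.26 without replicate 3).

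FGF21, an endocrine factor whose promoter holds the motif 54 bases before the start, was nearly silent outside the induced groups, with 2 counts summed over EV, 4 over TAZ-CAMTA1 and 0 over each of TFE3, EVsub and CAMTA1. The sums were 26 in the libraries labelled TAZ4SA, 71 in YAP5SA and 314 in YAP-TFE3, of which replicate 3 gave 19. The ratio to EV of summed counts per total was 13.3 (95% exact counting interval 3.33 to 116), 40.1 (10.7 to 338) and 123 (33.6 to 1020), and without YAP-TFE3 replicate 3 the last became 179 (49.0 to 1480). These intervals cover counting error only. The edgeR call in the libraries labelled TAZ4SA (adjusted p = 0.0428) was lost when any 1 of the 6 libraries was left out and under total-count scaling.

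STC2, a secreted glycoprotein, was at 43.0, 42.4 and 42.0 CPM in EV, 279, 288 and 256 CPM in YAP5SA, 222, 252 and 216 in the libraries labelled TAZ4SA and 581, 612 and 214 in YAP-TFE3. Its log2 fold changes were 2.44 in the libraries labelled TAZ4SA, 2.69 in YAP5SA and 3.46 in YAP-TFE3 (3.81 without replicate 3). VLDLR, the very low density lipoprotein receptor, rose by 1.80, 1.79 and 1.91 (1.88). Its YAP-TFE3 libraries at 57.1, 57.0 and 60.0 CPM were alike, so that replicate 3 did not stand apart for this gene.

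The comparison of YAP-TFE3 with YAP5SA asks where the fusion differs from activated YAP. With all libraries 9 of the 40 genes (22.5%) were higher and 10 (25%) lower in YAP-TFE3, where 28.1% of all genes were higher and 24.3% lower. With all libraries, then, the 40 genes were called at rates near or below those of all genes. Without YAP-TFE3 replicate 3 the counts were 20 higher and 7 lower, where 28.3% of all genes were higher and 25.2% lower. All 9 higher calls and 7 of the lower ones were kept, 11 higher calls were gained, and the lower calls of ASNS, PYCR1 and SLC1A4 were lost. Scaled to total counts, with all libraries, the split was 10 higher and 7 lower, while that of all genes moved from 5618 higher and 4867 lower to 6562 and 4044. The median log2 difference was 0.09, or 0.29 without replicate 3.

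The genes higher in YAP-TFE3 were GDF15 (log2 fold change 4.20 ± 0.40 SE), NUPR1 (2.09 ± 0.27), DDIT3 (1.81 ± 0.33), FGF21 (1.64 ± 0.52), CTH (1.33 ± 0.27), WARS1 (1.14 ± 0.17), PPP1R15A (0.86 ± 0.19), STC2 (0.77 ± 0.23) and XPOT (0.60 ± 0.15). Without replicate 3 these were 4.62, 2.37, 2.24, 2.15, 1.73, 1.36, 1.18, 1.12 and 0.80. The groups did not overlap for GDF15, NUPR1 and WARS1, and for the other 6 replicate 3 came down into the YAP5SA range or below it. FGF21, which passed the filter through its YAP-TFE3 counts, lost its call without YAP5SA replicate 1 or YAP-TFE3 replicate 2. STC2 lost it without YAP-TFE3 replicate 1 or 2, and both did when only the groups compared were fitted.

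The genes lower in YAP-TFE3 were 5 of synthesis, 3 of transport, MARS1 of tRNA charging, and ATF4, while 2 genes of charging and export were higher. At 25% of the 40, the lower genes were near the share of all genes, 24.3%. PHGDH was lower by -0.91 ± 0.16 (SE), SLC7A5 by -0.75 ± 0.22, MARS1 by -0.67 ± 0.09 and ATF4 by -0.48 ± 0.09, and these were called without replicate 3 too, at -0.89, -0.43, -0.70 and -0.37. SLC7A1 (-0.62, -0.34 without replicate 3), CBS (-0.50, -0.38) and ALDH18A1 (-0.27, -0.36) were also called both ways. ALDH18A1 lost its call without YAP5SA replicate 1 or 2 or YAP-TFE3 replicate 1 or 2, under total-count scaling, without a filter and when only the groups compared were fitted. ASNS (-0.62), SLC1A4 (-0.62) and PYCR1 (-0.35) did not pass without YAP-TFE3 replicate 3, at -0.42, -0.37 and -0.23, and ASNS lost its call without any of the YAP5SA libraries, by DESeq2 and under total-count scaling. PYCR1 lost it without YAP5SA replicate 2, under total-count scaling and when only the groups compared were fitted. The groups overlapped for PYCR1 and ALDH18A1 and not for the other 8. Called or not, 13 of the 40 genes did not overlap in this comparison, against 51.6% of all genes, so separation was rarer among the 40. By role, synthesis counted 1 higher and 5 lower, transport 0 and 3, tRNA charging and export 2 and 1, transcription factors 2 and 1, feedback 1 and 0, and secreted factors 3 and 0. Whether the calls differ by role was not tested.

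**Figure D4:**
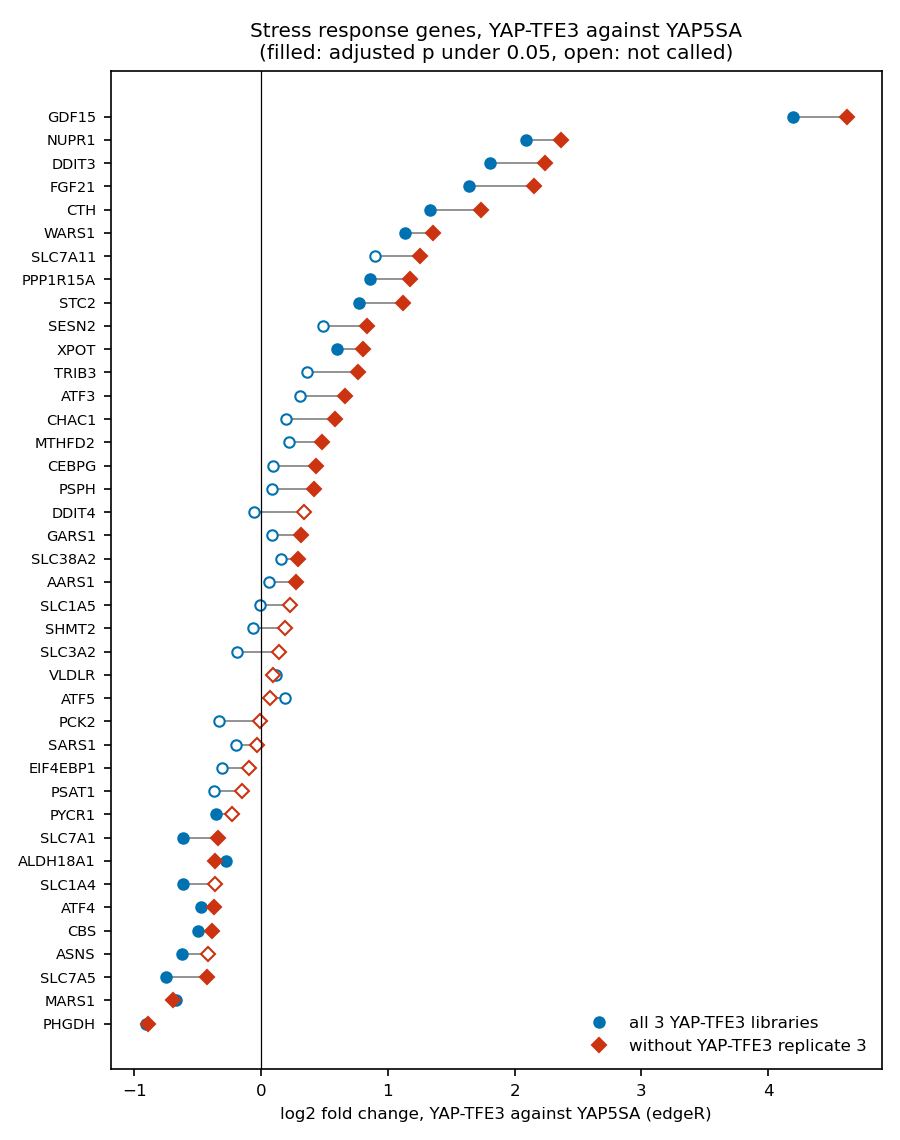
Log2 fold change of the 40 genes in YAP-TFE3 against YAP5SA (horizontal axis), with circles for all 3 YAP-TFE3 libraries and diamonds without replicate 3, filled where the edgeR adjusted p was under 0.05. GDF15 is furthest to the right at 4.20 and 4.62, PHGDH furthest to the left at -0.91 and -0.89, and 11 genes have an open circle beside a filled diamond on the higher side.

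The same question for the other fusion set TAZ-CAMTA1 against the libraries labelled TAZ4SA. There 37 of the 40 genes were lower and 1 was higher, where 26.8% of all genes were lower and 26.9% higher, with a median log2 fold change of -1.56. Among the called genes GDF15 (-3.73 ± 0.52 SE), ATF3 (-2.78 ± 0.24) and CHAC1 (-2.68 ± 0.34) were the lowest. For ATF3 the TAZ-CAMTA1 libraries held 5.68, 7.39 and 6.82 CPM. All 3 genes were separated without overlap. SLC38A2 was higher by 0.26 ± 0.11 (adjusted p = 0.0419), with 1009, 1083 and 1069 CPM in TAZ-CAMTA1, a call that was lost without any one of the TAZ-CAMTA1 libraries or replicate 1 or 2 of the libraries labelled TAZ4SA. SLC7A11 was lower by -1.10 ± 0.43 with overlapping groups, and its call was lost without TAZ-CAMTA1 replicate 1 or 2 or replicate 3 of the libraries labelled TAZ4SA, by DESeq2 and under total-count scaling. ATF5 and FGF21 were the other 2 genes, and neither passed. FGF21 had 4 counts in TAZ-CAMTA1 against 26, a ratio of 7.73 (95% exact counting interval 2.68 to 30.5).

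The fusions also differed from each other. In TAZ-CAMTA1 against YAP-TFE3, 37 of the 40 genes were lower and 0 higher, with all libraries and without YAP-TFE3 replicate 3, where 22.8% of all genes were lower and 19.9% higher. The median log2 fold change was -1.54 (-1.73 without replicate 3). GDF15 was lower by -6.82 ± 0.49 (SE), with 0.379, 0.274 and 0.707 CPM in TAZ-CAMTA1 (-7.25 without replicate 3), and DDIT3 by -3.54 ± 0.35 (-3.97 without replicate 3). FGF21 had a ratio of 71.2 (95% exact counting interval 27.5 to 263), from 4 counts against 314, or 104 (40.1 to 383) without replicate 3. ATF5, ALDH18A1 and SLC38A2 did not pass.

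EVsub against EV compares the 2 empty vector groups, which differ in density by their titles. In EVsub 20 of the 40 genes were lower and 1 higher, where 17.1% of all genes were lower and 19.8% higher, and the median log2 fold change was -0.51. CHAC1 (-2.13 ± 0.41 SE), ASNS (-1.96 ± 0.27) and NUPR1 (-1.83 ± 0.29) were the lowest, followed by SESN2 (-1.19), PHGDH (-1.17) and CBS (-1.15). By role, 8 of 11 synthesis genes, 5 of 6 genes of tRNA charging and export, 3 of 6 transcription factors, 2 of 6 feedback genes, 1 of 7 transporters and 1 of the 4 secreted factors and receptor were lower. ATF4 fell by 0.85 ± 0.09 on the log2 scale (adjusted p = 1.31e-06). ATF5 was higher by 0.38 ± 0.11, at 31.3, 30.2 and 34.3 CPM in EVsub. DDIT3, TRIB3 and DDIT4, at log2 fold changes within the range of the called genes for the last 2 (-0.58 and -0.62), did not pass.

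EV replicate 3 bears on this comparison, since it was high in most of the 40 genes. Without it 14 genes were lower and 1 higher, and the calls of ATF3, PSPH, SLC1A5, SARS1, GARS1 and AARS1 were lost. PSPH lost its call when any 1 of the 6 libraries was left out, ATF3 with any but EV replicate 1 left out, and SLC1A5 also without EVsub replicate 1 or 2. CAMTA1 cells, collected before confluence, stayed near EVsub, with ASNS at 45.1, 41.1 and 42.4 CPM against 40.3, 40.6 and 40.1.

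Counts are also given for 5 neighbouring lists, none of whose genes is among the 40. They are to be read against the shares of all genes called higher and lower, which were 22.7% and 21.6% in YAP5SA, 25.1% and 24.2% in the libraries labelled TAZ4SA, 25.6% and 22.6% in YAP-TFE3, 19.8% and 17.1% in EVsub, each against EV, and 28.1% and 24.3% in YAP-TFE3 against YAP5SA. The first holds 15 genes of the eIF2 machinery. YAP5SA had 7 higher and 0 lower, the libraries labelled TAZ4SA 7 and 1, and YAP-TFE3 6 and 1 (6 and 2 without replicate 3). Their median log2 fold changes were 0.18, 0.12 and 0.01 (0.11). Of the 4 kinases that phosphorylate eIF2, EIF2AK3, which encodes PERK, was at 16.1, 18.5 and 17.2 CPM in EV and at 34.3, 33.7 and 43.4 CPM in YAP-TFE3. The YAP-TFE3 libraries were all above EV, and replicate 3 was the highest. EIF2AK3 rose by 1.10 ± 0.11 (SE) in YAP-TFE3 (0.98 without replicate 3), and was at -0.05 in YAP5SA and -0.20 in the libraries labelled TAZ4SA without passing. EIF2AK4, which encodes GCN2, rose by 0.29, 0.37 and 0.28 in the libraries labelled TAZ4SA, YAP5SA and YAP-TFE3 (0.25). EIF2AK2, which encodes PKR, rose by 0.42 in YAP-TFE3 (0.40), and EIF2AK1, which encodes HRI, by 0.21 in YAP5SA. EIF2S2, the beta subunit of eIF2, rose by 0.39, 0.60 and 1.48 (1.64) in the order given for EIF2AK4.

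Of 15 further cytosolic aminoacyl-tRNA synthetases, YAP5SA had 10 higher and 0 lower, the libraries labelled TAZ4SA 10 and 1, and YAP-TFE3 8 and 4 with and without replicate 3, with medians of 0.41, 0.41 and 0.36 (0.47). CARS1, the cysteine enzyme, rose in all 3 groups, by 1.47 in YAP5SA and 0.92 (0.98) in YAP-TFE3. In the libraries labelled TAZ4SA, YAP5SA and YAP-TFE3 in turn, IARS1, the isoleucine enzyme, rose by 1.24, 1.28 and 1.26 (1.43), and YARS1, the tyrosine enzyme, by 1.20, 1.10 and 0.97 (1.13). In YAP-TFE3 against YAP5SA 1 was higher and 7 lower (2 and 7 without replicate 3), with VARS1 at -0.75 (-0.77) and QARS1 at -0.73 (-0.87).

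The endoplasmic reticulum list of chaperones and targets of XBP1 or ATF6, 16 genes tested, had 7 higher and 2 lower in YAP5SA, 7 and 1 in the libraries labelled TAZ4SA, and 10 and 2 in YAP-TFE3 (10 and 3 without replicate 3). Its medians were 0.13, 0.13 and 0.74 (0.74). ERN1, the sensor IRE1, was at 13.1, 11.8 and 15.3 CPM in EV and at 89.1, 92.6 and 25.4 CPM in YAP-TFE3, and rose by 0.99 in YAP5SA, 0.99 in the libraries labelled TAZ4SA and 2.37 in YAP-TFE3 (2.77). HSPA5, the chaperone BiP, rose by 0.58, 0.78 and 1.31 (1.46) in the same order, and EDEM1, which helps clear misfolded protein, by 0.48, 0.63 and 1.72 (1.68). In YAP-TFE3 against YAP5SA 8 of the 16 were higher and 0 lower (9 and 3 without replicate 3), among them DNAJC3 at 1.48 (1.42), ERN1 at 1.38 (1.78) and EDEM1 at 1.24 (1.19).

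Of 8 genes of mitochondrial stress, 4 were higher and 0 lower in both YAP5SA and the libraries labelled TAZ4SA, and 3 and 1 in YAP-TFE3 (3 and 2 without replicate 3). In YAP5SA, the libraries labelled TAZ4SA and YAP-TFE3 in turn, the protease LONP1 rose by 1.11, 1.21 and 1.41 (1.55) and the chaperone HSPA9 by 0.92, 0.90 and 1.55 (1.77). Of 7 further serine and one-carbon genes, YAP5SA had 2 higher and 1 lower, the libraries labelled TAZ4SA 2 and 3, and YAP-TFE3 1 and 2 (2 and 3). With so few genes, the 2 higher are 28.6% of the list, near the share of all genes. MTHFD1L, a mitochondrial folate enzyme, rose by 1.75 and 1.57 in the libraries labelled TAZ4SA and YAP5SA and was at 0.21 in YAP-TFE3, where it passed without replicate 3 at 0.46. TYMS, which makes thymidylate, fell by 1.85 on the log2 scale in YAP-TFE3 (by 2.31 without replicate 3).

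In TAZ-CAMTA1 against EV, 1 gene of the eIF2 list was higher (EIF2AK2, 0.33) and 1 of the synthetases was lower (FARSA, -0.36), and the other 3 lists had 0 calls. In TFE3 against EV and in CAMTA1 against EVsub the 5 lists had 0 calls. In EVsub against EV the eIF2 list had 4 higher and 0 lower, the synthetases 4 and 3, the endoplasmic reticulum list 1 and 4, the mitochondrial list 4 and 1, and the one-carbon list 2 and 2. The synthetases, at 26.7% and 20%, lay near the shares of all genes. These counts stand beside 1 higher and 20 lower among the 40 genes.

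**Figure D5:**
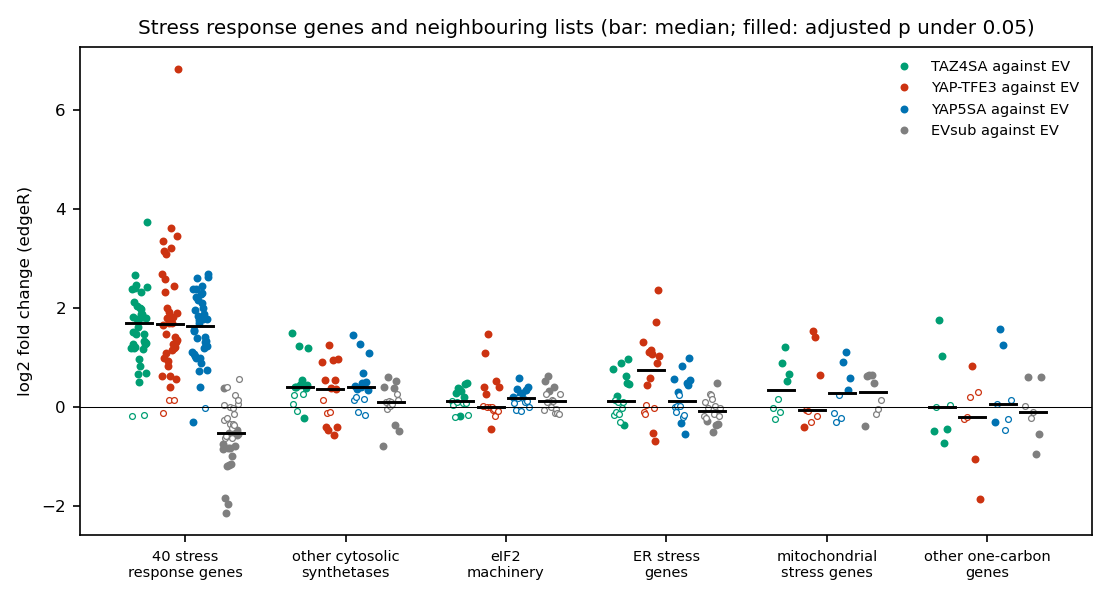
Log2 fold change (vertical axis) of each gene of the 40 and of 5 neighbouring lists in 4 comparisons against EV, filled where the edgeR adjusted p was under 0.05, with a bar at the list's median. FGF21 enters the medians but is not drawn, since EV had 3 counts or fewer of it in every library. The medians of the 40 genes are 1.70, 1.68 and 1.63 in the induced groups and -0.51 in EVsub, while those of the neighbouring lists lie between -0.19 and 0.74.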

How the data were processed

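RNA from 24 SW872 libraries was measured as paired-end reads from a stranded poly(A) library kit. Per the methods of the study, the authors aligned reads to hg38 with Hisat2 in the bcbio-nextgen pipeline and used Ensembl annotation, and they ran DESeq2 on salmon estimates for their own tests. The deposited tables hold raw counts per Ensembl gene for each library, unnormalized. The counting tool and its use of strand are not given in the sources used here, so genes with overlapping exons or pseudogenes (ATF4, ATF5, DDIT3, NUPR1, ASNS, PSPH, SHMT2, MTHFD2, PYCR1, SLC7A11, SLC7A5, SLC1A5, WARS1, GARS1, AARS1, MARS1 and VLDLR) are less certain.

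Counts were scaled by TMM and fitted over all 8 groups and all 24 libraries with edgeR 4.0.16 (R 4.3.3), using the quasi-likelihood test on 19997 genes that averaged 5 or more counts. P-values were adjusted by Benjamini-Hochberg over those genes, with 0.05 as the threshold. The replicates are separate transductions of one line. The 40 genes and the neighbouring lists were chosen with earlier results of these data known. Library values were set for 9 genes (ATF4, DDIT3, TRIB3, CHAC1, ASNS, PSAT1, PHGDH, SLC7A11 and DDIT4) and, in each comparison, for up to 3 risen and 3 fallen genes with the largest change and a mean count of 20 or more. Other members were named to account for all 40, and neighbouring genes by size of change, with the eIF2 kinases added after their values were seen. No 2 libraries held identical counts. Exact intervals are at 95%. The fit was tested on simulated data. Lengths come from GENCODE 44, and promoter sequences from RefSeq (GRCh38.p14). Alternatives were DESeq2 1.42.0, total-count scaling, no filter, a fit of only the groups compared, a replicate block and leaving out each library.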

Additional observations from a re-analysis of the deposited data

How the results depend on the processing

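The counts of called genes among the 40 stayed within 1.5 times their value in most settings. Without a filter on low counts, edgeR called 4 genes in TAZ-CAMTA1 against EV and 4 in CAMTA1 against EVsub. A fit of only the groups compared called 1 and 3. Leaving out 1 library gave 0 to 1 in CAMTA1 against EVsub, 37 in the libraries labelled TAZ4SA against EV, 35 to 38 in YAP-TFE3, 38 to 39 in YAP5SA, 15 to 20 in EVsub, 36 to 37 in TAZ-CAMTA1 against the libraries labelled TAZ4SA and 16 to 27 in YAP-TFE3 against YAP5SA. The cause was not tested. A fit with the replicate number as a block called 39 in TAZ-CAMTA1 against the libraries labelled TAZ4SA and 20 in YAP-TFE3 against YAP5SA, and left the other counts as they were. Over all tested genes, deviations of same-numbered libraries had mean correlations of -0.0257 to 0.129, and in 0 comparisons was every pair over 0.1. Of the 40 genes, replicate 3 was above both partners in 33 in EV, 32 in TAZ-CAMTA1 and 29 in the libraries labelled TAZ4SA. The number was 23 in YAP5SA, 22 in TFE3, 18 in EVsub, 13 in CAMTA1 and 3 in YAP-TFE3, against 29.5% to 41.4% of all genes. Whether same-numbered libraries pair in the 40 genes was not tested. Of the single-gene values, 2916 kept direction and side of the threshold, 73 lost their call and 0 reversed. Depth limits FGF21, with 2 counts over the EV libraries, and GDF15, with 8 to 15 counts in each of them.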
